A study of Mus musculus with 12 samples.

Results

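Ccl3, Ccl4, Ccl5 and Xcl1 encode the chemokines that NK cells are best known for secreting (natural killer cells, innate lymphocytes with cytotoxic granules). These 4 genes, found by symbol among the 56748 gene IDs of each count table, were described across 12 RNA sequencing libraries, each from sorted NK cells of mouse lymph nodes, with 4 libraries in each of 3 groups. The tumor-free group came from nodes of C57BL/6J mice without tumor. The lymphatic group came from tumor-bearing nodes of mice in which diffuse large B cell lymphoma had disseminated through lymphatic vessels, and the hematogenous group from tumor-bearing nodes of mice in which it had disseminated through blood vessels. The labels name neither the lymphoma line nor its route of inoculation, nor the sort gate or the age of the mice. Samples are numbered 1 to 4 within a group and nothing ties a number to an animal. The p-values therefore speak only of spread among libraries, and part of that spread may be technical.

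Chemokines are small secreted proteins that direct cell migration through G protein-coupled receptors. Ccl3 (MIP-1alpha), Ccl4 (MIP-1beta) and Ccl5 (RANTES) belong to the CC class. Xcl1 (lymphotactin) is a C chemokine whose receptor, XCR1, marks the conventional dendritic cells that cross-present antigen, and NK cells are known to recruit such dendritic cells with Ccl5 and Xcl1. In NK cells Ccl5 mRNA is held at a high steady level, whereas Ccl3, Ccl4 and Xcl1 are induced within hours of receptor or cytokine stimulation. AU-rich elements in the 3′ untranslated region (UTR), built around the pentamer ATTTA, are known to shorten the life of many cytokine and chemokine mRNAs through binding proteins such as that of Zfp36.

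Promoters of Ccl3 and Xcl1 were matched in the RefSeq table for GRCm38.p6, and 250 bases before the RefSeq start are printed, 5′ to 3′ on the strand of the gene. Capitals mark the matches, on either strand, to GGAAA (the core bound by NFAT, a factor that calcium signals activate), TGTGGT (RUNX) and GGTGTGA (T-box factors such as those of Tbx21 and Eomes).
Ccl3, chr11:83649379-83649628, minus strand: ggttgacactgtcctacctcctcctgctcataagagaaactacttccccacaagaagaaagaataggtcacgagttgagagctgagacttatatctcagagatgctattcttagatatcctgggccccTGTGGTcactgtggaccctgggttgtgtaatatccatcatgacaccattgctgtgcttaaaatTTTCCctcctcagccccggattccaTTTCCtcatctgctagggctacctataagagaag
Xcl1, chr1:164935523-164935772, minus strand: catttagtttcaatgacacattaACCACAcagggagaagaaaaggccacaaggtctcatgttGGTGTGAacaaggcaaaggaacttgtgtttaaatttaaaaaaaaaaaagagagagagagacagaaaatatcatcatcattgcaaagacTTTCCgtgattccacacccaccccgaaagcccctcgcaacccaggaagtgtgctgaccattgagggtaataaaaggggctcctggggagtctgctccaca
The Ccl3 window held 2 matches to GGAAA and 1 to TGTGGT, and the Xcl1 window 1 match to each of the 3 motifs. Of the 32851 promoter windows in the table, 55.6% held GGAAA, 14.1% TGTGGT and 3.33% GGTGTGA. No match was found in either window to TGANTCA (AP-1), TGACGTCA (the cyclic AMP response element), the interferon-stimulated response element, TATAAA or the kappaB consensus, which says only that these letters are not in these windows.

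Libraries held 6654215 to 43494812 reads assigned to genes, and 3 tumor-free libraries had the smallest totals. Every member was nevertheless well counted, with at least 287 reads per library (Ccl4 in tumor-free replicate 1), so counting error was small beside the spread between libraries. NK cell markers were high in every library: Ncr1, which encodes NKp46, had a mean of 1372 ± 101 CPM in tumor-free, 1041 ± 119 in lymphatic and 645 ± 147 in hematogenous libraries (CPM, the share of a library's gene counts after TMM scaling, the trimmed mean of M-values; mean ± SD, n = 4). Cd3e, a T cell receptor subunit gene, stood at 40.6 ± 24.7, 52.8 ± 12.4 and 101 ± 20.5 CPM in these groups. Not every marker moved this way: Klrk1 averaged 1586, 1583 and 1524 CPM, Klrd1 830, 777 and 986, and Cd3g 83.6, 74.3 and 100 CPM. In the hematogenous group 7 of 10 NK cell markers fell against tumor free, but Klrk1, Klrd1 and Gzmb were not called. Of 8 T cell markers 3, Cd3e among them, rose there, and Cd3g was not called. Among all genes tested in that comparison 6.87% fell and 9.52% rose. In bulk samples, fewer cells of a type and less RNA per cell cannot be told apart.

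Per kilobase of exon, Ccl5 had the highest level of the members in the tumor-free group, at 1989 ± 172 CPM per kb (SD, n = 4). Xcl1 followed at 542 ± 147, then Ccl3 at 73.9 ± 14.0 and Ccl4 at 62.1 ± 10.7 CPM per kb. The ranges of Ccl3 and Ccl4 overlapped in each of the 3 groups. Compared within a library on this scale, Ccl3 was above Ccl4 in every tumor-free library, and the order varied among libraries of the lymphoma groups. In the lymphatic group the same scale gave 1640 ± 108 for Ccl5, 974 ± 533 for Xcl1, 381 ± 298 for Ccl4 and 286 ± 123 for Ccl3. There the range of Xcl1, 682 to 1772 CPM per kb, reached into that of Ccl5, 1490 to 1746, through replicate 2 alone. In the hematogenous group Ccl5 stood at 1481 ± 230, Xcl1 at 186 ± 58.4, Ccl3 at 59.0 ± 24.3 and Ccl4 at 45.5 ± 11.6 CPM per kb, and Ccl5 and Xcl1 each stood clear of the other members. These levels use exon lengths from GENCODE M21, which for Ccl5 include an intron-retaining transcript, so they are approximate across genes.

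**Figure D1:**
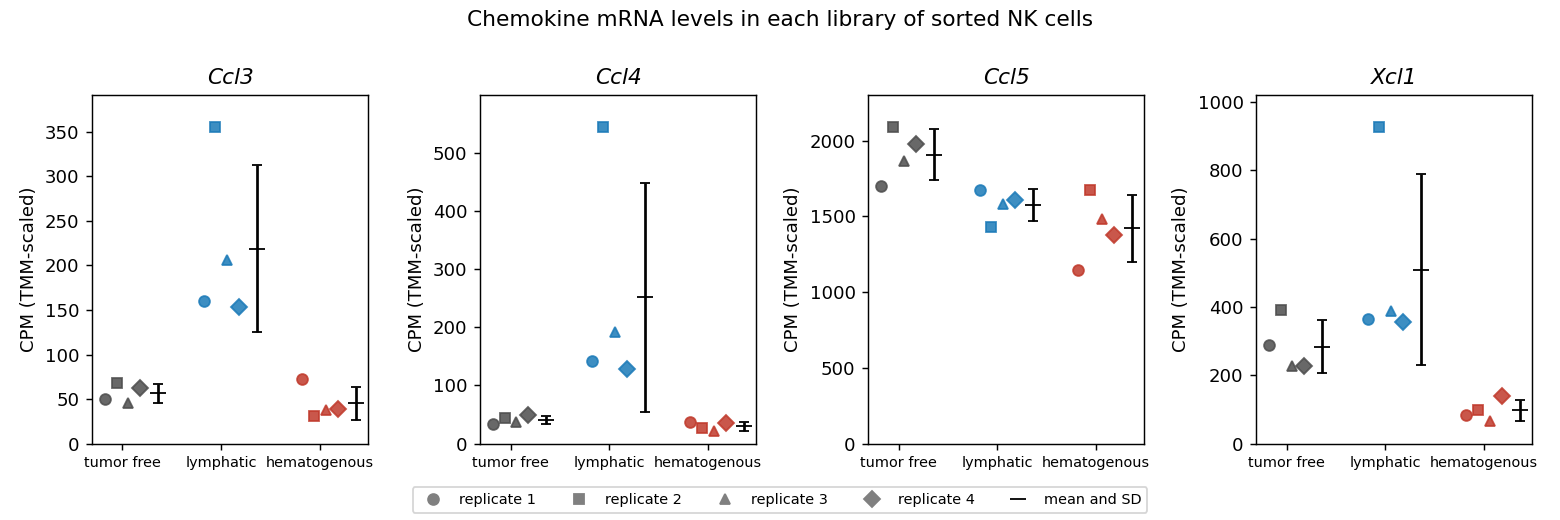
Level of each member in every library, in CPM on a linear axis from 0; marker shapes are replicates, and the bar beside each group is its mean and SD. Lymphatic replicate 2 is the highest library for Ccl3 (355 CPM), Ccl4 (544 CPM) and Xcl1 (927 CPM) and the lowest of its group for Ccl5 (1430 CPM).

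Ccl3 and Ccl4, the inducible CC members, rose in the lymphatic group. Ccl3 stood at 50.04, 68.4, 45.4 and 62.6 CPM in tumor-free replicates 1 to 4 and at 160, 355, 206 and 154 CPM in lymphatic replicates 1 to 4. The groups did not overlap, and the lowest lymphatic library was above the highest tumor-free library by more than the whole tumor-free range. The rise was 3.88-fold (log2 fold change 1.96 with SE 0.280, adjusted p = 0.000641 by edgeR). Ccl4 went from 33.6, 44.5, 36.8 and 48.9 CPM to 141, 544, 192 and 129 CPM in the same order. Its groups did not overlap either, and replicate 2 stood far above the other lymphatic libraries. The rise was 6.17-fold (log2 fold change 2.62 with SE 0.422, adjusted p = 0.00441 by edgeR). Without lymphatic replicate 2 the log2 fold change of Ccl4 was 1.88 (adjusted p = 3.44e-05 by edgeR) and that of Ccl3 1.58 (adjusted p = 0.000472 by edgeR). In this comparison 2 of the 4 members rose and none fell, whereas of the 16016 genes tested 2.32% rose, 0.418% fell and 2.74% were called in either direction. A separation of all 4 libraries upward, as for Ccl3 and Ccl4, was seen in 7.66% of genes. The genes called numbered 439 in all, and 255 without lymphatic replicate 4.

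Xcl1 and Ccl5 were not called between the lymphatic and tumor-free groups. Xcl1 stood at 288, 391, 227 and 228 CPM in the tumor-free and at 365, 927, 389 and 357 CPM in the lymphatic libraries, and tumor-free replicate 2 lay within the lymphatic range. Its log2 fold change was 0.85 (SE 0.321, adjusted p = 0.238 by edgeR), and 0.35 (SE 0.211, adjusted p = 0.601 by edgeR) without lymphatic replicate 2. For Ccl5 the values were 1703, 2091, 1866 and 1977 CPM in the tumor-free and 1676, 1430, 1583 and 1608 CPM in the lymphatic libraries. All 4 lymphatic libraries were below the lowest tumor-free library, a separation seen in this direction in 2.24% of genes tested, but the size was small (log2 fold change −0.28 with SE 0.123, adjusted p = 0.315 by edgeR).

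In the hematogenous group it was Xcl1 that differed most from tumor-free nodes. It stood at 84.97, 99.2, 66.3 and 138 CPM in hematogenous replicates 1 to 4, all below the lowest tumor-free library at 227 CPM. The level was 2.91-fold lower (log2 fold change −1.54 with SE 0.328, adjusted p = 0.00704 by edgeR). Ccl5 was lower as well, at 1149, 1677, 1484 and 1377 CPM, with the highest of these just under the lowest tumor-free library at 1703 CPM. It was 1.34-fold lower (log2 fold change −0.43 with SE 0.124, adjusted p = 0.0232 by edgeR). That call was lost without tumor-free replicate 2 or 4 or hematogenous replicate 1 or 4 (adjusted p = 0.0812, 0.0651, 0.0656 and 0.0593 by edgeR). So 2 of the 4 members fell and none rose, whereas of the genes tested 6.87% fell, 9.52% rose and 16.4% were called in either direction. Separation downward of all 4 libraries, as for these members, was seen in 8.01% of genes. Both tests use the tumor-free libraries that also served for the lymphatic group.

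Ccl3 and Ccl4 were not called in this comparison. Ccl3 stood at 72.7, 31.6, 38.0 and 38.5 CPM in the hematogenous libraries, so that replicate 1 was above every tumor-free library and the other 3 below every one (log2 fold change −0.32 with SE 0.275, adjusted p = 0.480 by edgeR). Without hematogenous replicate 1 the value was −0.64 (SE 0.238, adjusted p = 0.0852 by edgeR). Ccl4, at 37.2, 26.6, 20.9 and 35.4 CPM, overlapped the tumor-free range (log2 fold change −0.45 with SE 0.410, adjusted p = 0.526 by edgeR).

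The models of dissemination differed from each other in 3 of the 4 members, each lower in the hematogenous group, whereas of the genes tested 5.92% were lower, 2.93% higher and 8.85% called in either direction. Xcl1 was 5.24-fold lower (log2 fold change −2.39 with SE 0.336, adjusted p = 0.00150 by edgeR), Ccl3 4.86-fold lower (−2.28 with SE 0.282, adjusted p = 0.000257 by edgeR) and Ccl4 8.40-fold lower (−3.07 with SE 0.428, adjusted p = 0.00180 by edgeR). The groups did not overlap for any of these genes, a separation downward seen in 11.3% of genes tested. Ccl3 came closest, with its highest hematogenous library at 72.7 CPM and its lowest lymphatic library at 154 CPM. Without lymphatic replicate 2 the log2 fold change of Ccl4 was −2.37 (adjusted p = 7.15e-06 by edgeR), and the number of genes called in this comparison fell from 1417 to 620, as it did without hematogenous replicate 3, and it was 811 without hematogenous replicate 1. Ccl5 overlapped between the models (log2 fold change −0.15 with SE 0.123, adjusted p = 0.564 by edgeR). With scaling by library size alone 744 genes were higher and 590 lower between the models, against 469 and 948, and the median over all genes moved from −0.01 to 0.10 on the log2 scale. The 3 members were called lower under each scaling.

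**Figure D2:**
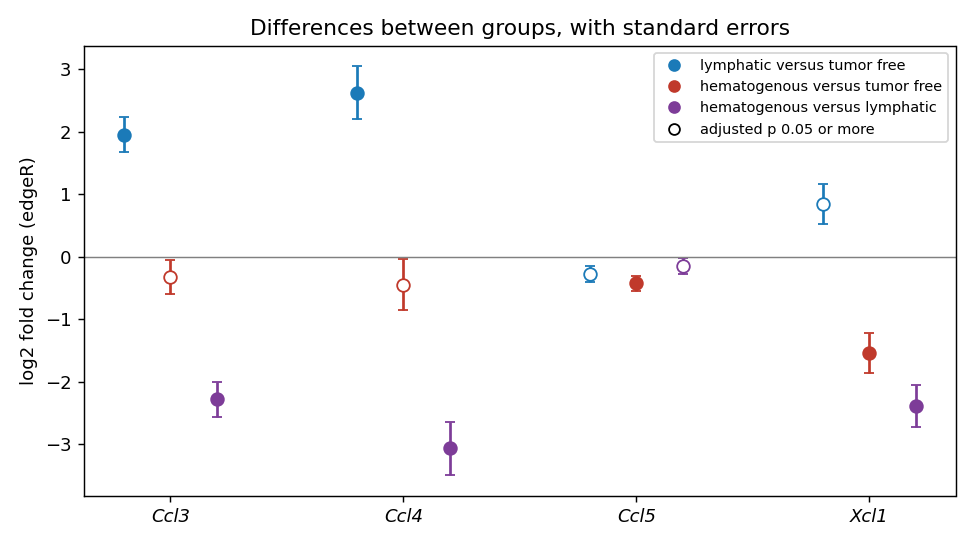
Log2 fold change of each member in the 3 comparisons, with standard errors from edgeR; filled circles passed an adjusted p under 0.05 and open circles did not. Ccl3 (1.96) and Ccl4 (2.62) lie above 0 for lymphatic against tumor free, and Xcl1 lies below 0 in both comparisons that involve the hematogenous group (−1.54 and −2.39).

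Ratios of read counts within a library do not depend on scaling, and 3 of them were compared in 9 exact permutation tests (two-sided, 4 against 4, smallest possible p = 0.0286). Xcl1 reads per Ccl5 read were 0.169, 0.187, 0.122 and 0.115 in the tumor-free libraries, 0.218, 0.648, 0.246 and 0.222 in the lymphatic and 0.0740, 0.0592, 0.0447 and 0.1005 in the hematogenous libraries. No group overlapped another, and each of the 3 comparisons reached exact p = 0.0286 (adjusted exact p = 0.0429). Ccl3 and Ccl4 reads together, per Ccl5 read, were 0.0441 to 0.0564 in the tumor-free, 0.176 to 0.629 in the lymphatic and 0.0347 to 0.0957 in the hematogenous libraries. The lymphatic group stood clear of both others (exact p = 0.0286, adjusted exact p = 0.0429 each), and the hematogenous range enclosed the tumor-free range (exact p = 1).

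Ccl4 reads per Ccl3 read ran from 0.652 to 0.811 in the tumor-free libraries and from 0.840 to 1.53 in the lymphatic libraries, so Ccl4 rose more than Ccl3 (difference in mean log2 ratio 0.48, exact p = 0.0286, adjusted exact p = 0.0429). In the hematogenous libraries the ratio ran from 0.512 to 0.920, across the tumor-free range (exact p = 0.686), and against the lymphatic group exact p was 0.143. The 6 ratio tests at the smallest p pass after adjustment only together. Without lymphatic replicate 2, 5 of them had an adjusted exact p of 0.0857, and leaving out any of the 4 tumor-free libraries put 4 of them between 0.0643 and 0.129.

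**Figure D3:**
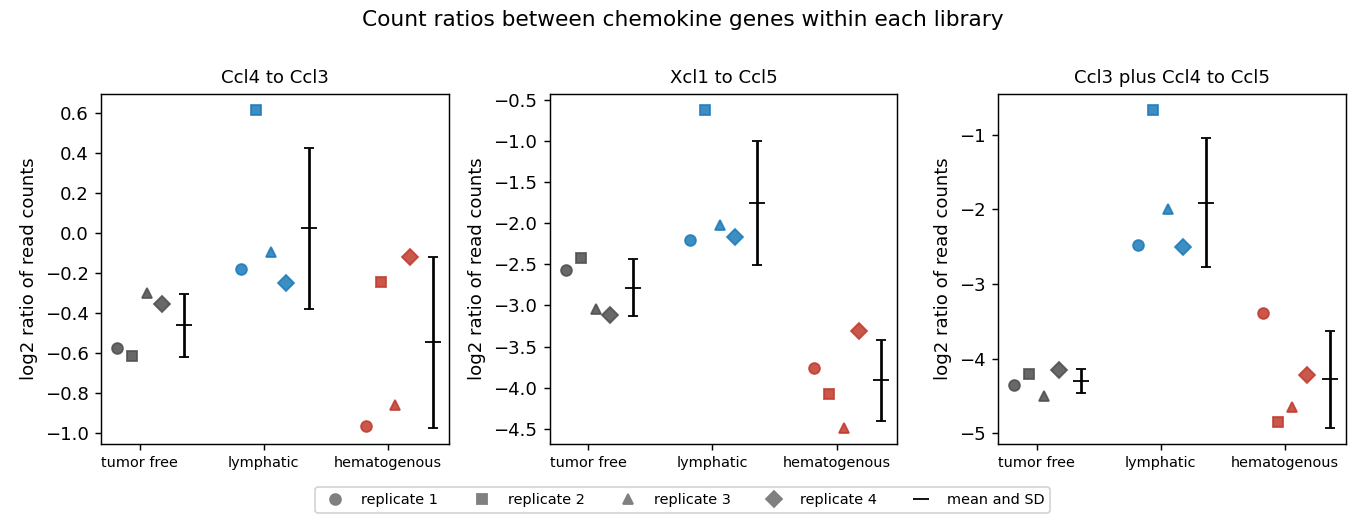
Log2 ratio of read counts between members in each library, by group; marker shapes are replicates, and the bar is the mean and SD. The Xcl1 to Ccl5 ratio falls into 3 separate ranges, and the ratio of Ccl3 plus Ccl4 to Ccl5 is higher in all 4 lymphatic libraries than in any other.

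Ccl3 and Ccl4, neighbours on chromosome 11, also moved together among replicates. After the mean of each group was removed, log2(CPM + 0.5) of Ccl3 and Ccl4 had a Pearson correlation of 0.82 over the 12 libraries, as a description. Xcl1, which lies on chromosome 1, had 0.79 with Ccl4 and 0.52 with Ccl3 on the same scale. Ccl5 had −0.61 with Ccl3, −0.41 with Ccl4 and −0.17 with Xcl1. Lymphatic replicate 2, high for 3 members and low for Ccl5, enters each of these values.

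Among 9322 other protein-coding genes with a mean of at least 5 CPM, the genes closest to Ccl3 over the 12 libraries were Ccl4 (Pearson r = 0.97), Ifng (0.94), Pole (0.92), Umps (0.92) and Spty2d1 (0.92). For Ccl4 they were Ccl3 (0.97), Hspa8 (0.96), Ifng (0.96), Umps (0.96) and Crtam (0.94). Those closest to Xcl1 were Ywhae (0.98), Oaz1 (0.97), Ldha (0.96), Psmd13 (0.96) and Psme2 (0.96), and those closest to Ccl5 were Myo6 (0.94), Cd7 (0.94), Tor4a (0.94), Ssna1 (0.92) and Rplp2 (0.91). These values hold differences between groups as well as within them.

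Among receptor genes, Ccr1, a receptor of Ccl3 and Ccl5 that myeloid cells express, was near its detection limit in the tumor-free libraries, with reads in 1 of 4, and rose to 2.25 ± 0.860 CPM in the hematogenous group (adjusted p = 0.0361 by edgeR). Ccr3, Xcr1, the scavenger receptor gene Ackr2 and Ackr1 were too low to be tested. Xcr1 averaged 0.882, 0.240 and 0.0889 CPM in the tumor-free, lymphatic and hematogenous groups, with no reads in 2 of 4 libraries of each.

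Of 31 other chemokine ligand genes, 12 passed the filter on low counts. In the lymphatic group Ccl6 and Ccl9 rose, and in the hematogenous group Ccl6, Ccl9 and Cxcl10 did. No other ligand gene was called in any of the 3 comparisons. Over all genes tested, 2.32% rose in the lymphatic and 9.52% in the hematogenous group. The 31 genes summed to 14.7 to 30.6 CPM in the tumor-free, 50.1 to 121 in the lymphatic and 37.6 to 94.2 CPM in the hematogenous libraries, where the sum overlapped the range of Ccl3 and lay above that of Ccl4. Ccl6, which lies in the same cluster as Ccl3, Ccl4 and Ccl5, had 0 reads in all tumor-free libraries and stood at least 58.7-fold higher in lymphatic and at least 128-fold higher in hematogenous libraries, against a floor of 3 counts over the tumor-free group. Ccl9 had reads in 1 tumor-free library and had means of 7.79 ± 8.03 CPM (lymphatic) and 9.16 ± 3.79 CPM (hematogenous). Cxcl10, an interferon-induced CXCR3 ligand, stood at 2.45 ± 2.83, 35.2 ± 16.7 and 20.3 ± 13.4 CPM in the 3 groups (adjusted p = 0.0548 by edgeR for lymphatic and 0.0434 for hematogenous against tumor free).

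Ifng, the gene of interferon-gamma, which NK cells secrete beside these chemokines, was highest in the lymphatic group, as Ccl3 and Ccl4 were. It ran from 52.8 to 91.3 CPM in the tumor-free, 141 to 298 in the lymphatic and 46.9 to 80.0 CPM in the hematogenous libraries. Of the 9 tested genes in the list of other NK cytokines, Ifng alone rose in the lymphatic group (log2 fold change 1.56 with SE 0.231, adjusted p = 0.000417 by edgeR), and the death ligand gene Tnfsf10 fell (−0.53 with SE 0.140, adjusted p = 0.0450 by edgeR). In the hematogenous group Ltb, the gene of lymphotoxin beta, and Tnfsf10 fell (−0.54, adjusted p = 0.0366 by edgeR and −0.54, adjusted p = 0.0124 by edgeR). Among all genes tested 2.32% rose and 0.418% fell in the lymphatic group, and 9.52% rose and 6.87% fell in the hematogenous group. Tnf had log2 fold changes of 0.28 (SE 0.290) and 0.15 (SE 0.291) against tumor free, and Csf2, the gene of GM-CSF, 0.66 (SE 0.575) and −0.06 (SE 0.578), none of them called.

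Transcription factors known to act on chemokine genes were higher in the lymphatic group in 9 of 26 cases and lower in none. Across all genes tested 2.32% were higher and 0.418% lower in that group. The list, chosen with earlier results of these data known, had a median log2 fold change of 0.26 against 0.08 over all genes tested. The factors that were higher include the AP-1 genes Fos, Fosb, Fosl2, Jun and Jund and the interferon regulatory factor genes Irf7 and Irf8. Jun, an AP-1 subunit gene, went from 30.7 ± 14.4 to 272 ± 34.4 CPM (log2 fold change 3.17, adjusted p = 3.21e-05 by edgeR). Nfkb1, a subunit gene of NF-kappaB, stood at 0.37 (SE 0.109, adjusted p = 0.0784 by edgeR).

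In the hematogenous group 5 of these 26 genes rose and 2 fell, shares to be read against the 9.52% of all genes tested that rose and the 6.87% that fell; the count of falls is near that background. The list's median log2 fold change was −0.0078, against 0.08 over all genes tested. The T-box factor genes Tbx21 and Eomes, which define the NK lineage, were the ones that fell (−0.77 with SE 0.147, adjusted p = 0.00173 by edgeR and −0.51 with SE 0.125, adjusted p = 0.00857 by edgeR). Fos, Fosb, Jun, Rel and Klf13 rose. Klf13, known from T cells as a factor of late Ccl5 transcription, rose from 277 ± 26.5 to 443 ± 52.7 CPM (log2 fold change 0.68 with SE 0.117, adjusted p = 0.000769 by edgeR), while Ccl5 was lower in the same libraries. Between the models 11 factors were lower in the hematogenous group, among them Eomes (−0.65 with SE 0.125, adjusted p = 0.00348 by edgeR) and Fos (−1.98, adjusted p = 0.00597 by edgeR), and Klf13 was higher. In that comparison 5.92% of all genes tested were lower and 2.93% higher.

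Among genes of AU-rich mRNA decay, the tristetraprolin family rose in both lymphoma groups. Zfp36 went from 114 ± 5.21 CPM in the tumor-free to 347 ± 57.2 in the lymphatic and 190 ± 31.1 CPM in the hematogenous group (adjusted p = 2.22e-06 and 0.00132 by edgeR). Zfp36l1 rose to 267 ± 11.4 and 259 ± 45.02 from 171 ± 11.9 CPM (adjusted p = 0.00543 and 0.00315 by edgeR), and Zfp36l2 to 545 ± 106 and 976 ± 223 from 334 ± 28.9 CPM (adjusted p = 0.0163 and 1.66e-05 by edgeR). The other 4 genes of this list of 7 were not called in either group. For all genes tested the share that rose was 2.32% in the lymphatic and 9.52% in the hematogenous group. Zfp36 was higher in the lymphatic than in the hematogenous group, as were Ccl3 and Ccl4, and Zfp36l2 was lower.

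Of the genes of granule storage and release, none of 7 tested was called in the lymphatic group. Among all genes tested 2.74% were called there, so that count is near the background and says little. Rab27a rose and Unc13d, which primes granules for fusion, fell in the hematogenous group (0.70, adjusted p = 0.0230 by edgeR and −0.64, adjusted p = 0.00849 by edgeR). In that group 9.52% of all genes tested rose and 6.87% fell. Rab27a was also higher in the hematogenous than in the lymphatic group. Srgn encodes serglycin, the proteoglycan that binds chemokines and granzymes in granules. It stood at 327 ± 41.1, 379 ± 95.4 and 217 ± 70.1 CPM in the tumor-free, lymphatic and hematogenous groups and was lower in the hematogenous than in the lymphatic group (−0.80 with SE 0.202, adjusted p = 0.0173 by edgeR), with an edgeR adjusted p of 0.0509 against tumor free. Vamp7, listed here, was matched to no gene ID.

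**Figure D4:**
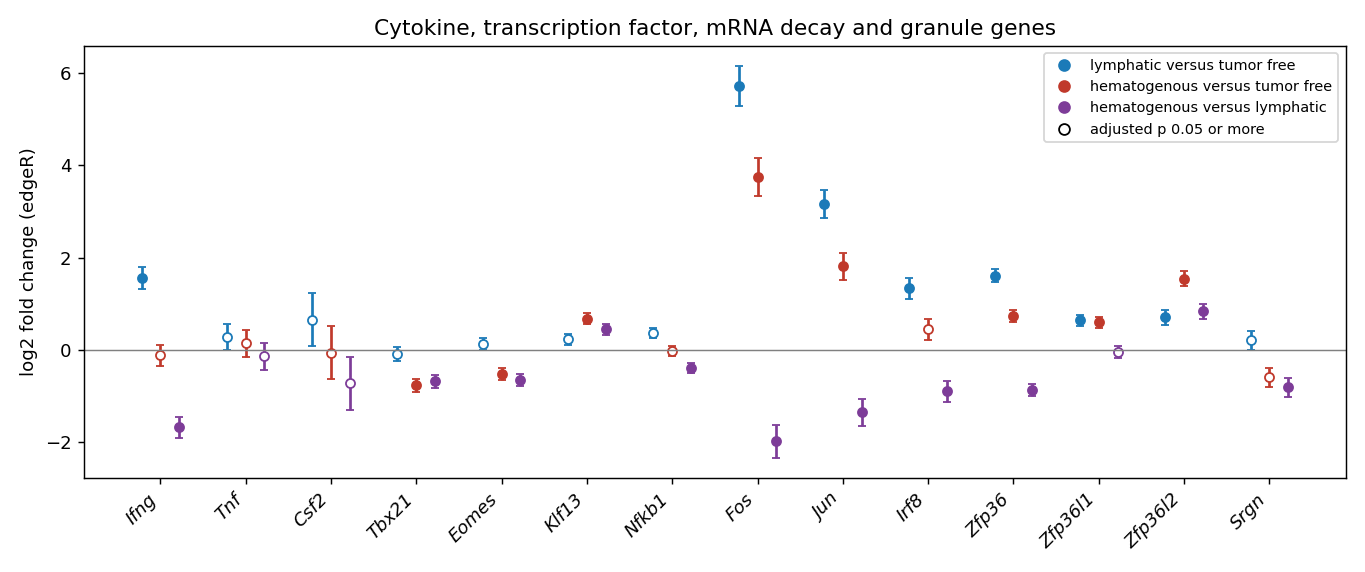
Log2 fold change (edgeR, with standard errors) of genes related to the chemokines in the 3 comparisons; filled circles passed an adjusted p under 0.05 and open circles did not. Ifng (1.56) is called higher for lymphatic against tumor free, Tbx21 and Eomes fall in the hematogenous group, and the Zfp36 family rises in both.

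Other measures moved with these results. Immediate early genes, which respond to stimulation and to tissue handling and of which some are also in the transcription factor and decay lists, were higher in 10 of 13 cases in the lymphatic group and none was lower. For all genes tested these shares were 2.32% and 0.418%. The summed level of the immediate early genes ran from 362 to 555 CPM in the tumor-free, 2329 to 3860 in the lymphatic and 620 to 1411 CPM in the hematogenous libraries. Against tumor free 7 of the 13 rose and 1, Egr2, fell in the hematogenous group, in which Ccl3 and Ccl4 were not called. There 9.52% of all genes tested rose and 6.87% fell. Between the models 11 of the 13 were lower in the hematogenous group and none higher (median log2 fold change −1.98), in the comparison in which Ccl3, Ccl4 and Xcl1 were lower too. There 5.92% of all genes tested were lower and 2.93% higher. The part of the immediate early genes in the Ccl3, Ccl4 and Xcl1 results was not tested.

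NK cell markers fell in 7 of 10 cases in the hematogenous group, and their summed level was 10106 to 12154 CPM in the tumor-free, 8989 to 12036 in the lymphatic and 6574 to 7824 CPM in the hematogenous libraries. In the hematogenous group against tumor free, 6.87% of all genes tested fell and 9.52% rose. T cell markers rose in 3 of 8 cases there, with sums of 178 to 305, 213 to 386 and 390 to 510 CPM. Neutrophil markers rose in 3 of 3 tested cases but summed to at most 43.8 CPM, and S100a8 had no reads in 3 tumor-free, 3 lymphatic and 1 hematogenous library. Their part in the lower Xcl1 and Ccl5 of that group was not tested.

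Monocytes, macrophages, basophils, B cells and dendritic cells can make some of these chemokines as well. Monocyte and macrophage markers summed to 79.8 to 145 CPM in the tumor-free, 70.2 to 146 in the lymphatic and 66.4 to 178 CPM in the hematogenous libraries, and 1 of 8 tested was higher in the lymphatic and 4 in the hematogenous group. The shares of all genes tested that rose were 2.32% in the lymphatic and 9.52% in the hematogenous group. The markers called higher were Cd68 in the lymphatic group and Adgre1, Cd14, Cd68 and Csf1r in the hematogenous group. Csf1r averaged 6.01, 9.27 and 19.7 CPM in the tumor-free, lymphatic and hematogenous groups, and Adgre1 0.354, 1.55 and 5.82 CPM. Means of C1qa, C1qb, C1qc and the untested Fcgr1 were lower in each lymphoma group, with none called. Lyz2, with the highest mean of the list in each group, was not called and averaged 95.4, 69.1 and 91.1 CPM. Basophil and mast cell markers summed to at most 3.74, 3.85 and 42.8 CPM, and Mcpt8 had no reads in any tumor-free library. B cell markers summed to 28.1 to 102, 81.1 to 265 and 73.9 to 116 CPM, with 1 of 6, Pax5, higher in each lymphoma group, and Cd79a averaged 10.1, 21.3 and 10.8 CPM. A count of 1 gene says little beside the shares over all genes tested. Of the dendritic cell markers, Clec9a had no reads in any tumor-free library and averaged 0.463 and 0.358 CPM in the lymphoma groups. Of 4 tested against tumor free, none was called in the lymphatic group and 1, Flt3, was higher in the hematogenous group. Flt3 averaged 0.181, 1.25 and 2.83 CPM in the tumor-free, lymphatic and hematogenous groups. Between the models Itgax was lower in the hematogenous group, as were 5.92% of all genes tested. The sums of the dendritic cell list, 785 to 942, 1117 to 1484 and 563 to 1007 CPM, came mostly from Itgax, which NK cells express as well. The lymphatic sums lay above the tumor-free sums. The part of these cells in the results was not tested.

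Xcl1 is overlapped on the opposite strand by the noncoding gene Gm20743 in GENCODE M21, and the strand setting of the counting is not given in the sources used here, so reads of these genes may not be fully told apart. Gm20743 stood at 32.9 ± 1.54, 86.7 ± 8.35 and 33.1 ± 12.8 CPM in the tumor-free, lymphatic and hematogenous groups. It was higher in the lymphatic group (log2 fold change 1.40 with SE 0.228, adjusted p = 0.00118 by edgeR) and did not fall with Xcl1 in the hematogenous group (0.00 with SE 0.227, adjusted p = 0.992 by edgeR). No gene of that annotation overlapped Ccl3, Ccl4 or Ccl5.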

How the data were processed

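Each library has 1 deposited table of raw counts, which the authors produced by assigning reads to genes. The labels' protocols describe stranded poly(A) libraries sequenced single-end at 120 bp. Per the submitters' processing notes, the tools named are HTSeq 2.0.2, HISAT2 2.1.0, Trimmomatic 0.39 and FastQC 0.11.9, and the build is GRCm39; neither annotation release nor strand option is stated in those notes. Of all reads, 55.4% to 72.1% per library were assigned to genes, and the 5 summary lines holding the rest were left out. GENCODE M21 gave a symbol to 52073 of 56748 gene IDs (91.8%).

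Groups were compared with edgeR 4.0.16 in R 4.3.3: quasi-likelihood F test with robust estimation, TMM scaling, default filter by group, all 12 libraries, 16016 genes, Benjamini-Hochberg adjustment, called under 0.05. Standard errors were derived from the fold change and F (size over root F). Count ratios were compared with exact permutation tests, adjusted over 9. The members and lists were chosen with earlier results of these data known. Named genes were the members, up to 6 called genes per list by smallest adjusted p, a fixed set of related genes, defining markers of other cell types (Cd3e, Cd79a, Lyz2, Mcpt8, S100a8, Clec9a) and, per member, the 5 genes of highest correlation. Gm20743 and the markers Klrk1, Klrd1, Gzmb, Cd3g, Adgre1, Csf1r, Cd68, Cd14, C1qa, C1qb, C1qc and Flt3 were added after the files were read. Other called genes of a list are named without values. Reads carried no molecular identifiers, and the floor covers counting error alone. On simulated counts of 16016 genes with 100 changed 2-fold and 100 changed 4-fold, 46% and 59% were recovered for lymphatic against tumor free, with 5 false calls among 110. For hematogenous against tumor free 35% and 62% were recovered with 5 false calls among 102, and between the models 44% and 66% with 12 false calls among 122, more than the threshold allows on average. Alternatives were other scalings, filters and tests (DESeq2 1.42.0, limma 3.58.1), the compared groups alone, a replicate block, equal depth and leaving out each library. Some results on related genes and sequences are not reported here.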

Additional observations from a re-analysis of the deposited data

Results flagged for a closer look

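With 4 libraries in a group, a library was singled out when its gap to the next, as a share of the group's range, passed Dixon's 95% critical value. Of 21 groups of member levels and ratios, 4 held such a library, where chance gives about 1 in 20 for each group. The 21 groups are not independent, since the ratios reuse the counts behind the levels, so the number flagged does not measure an excess over chance. Of the 4 flagged values, 3 came from lymphatic replicate 2: Ccl4 at 544 CPM, Xcl1 at 927 CPM and the log2 ratio of Xcl1 to Ccl5 reads at −0.63. The other was Ccl3 in hematogenous replicate 1, at 72.7 CPM.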

How the results depend on the processing

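Of 264 refits of the 12 member comparisons, 260 kept direction and side of the threshold and none reversed. The others were the fall of Ccl5 in the hematogenous group, lost without 4 libraries (log2 fold change −0.51 to −0.33 over the 12 refits with a library left out). The genes called numbered 729 with DESeq2 against 439 for lymphatic against tumor free, and 255 to 634 with a library left out. Between the models they numbered 2913 with limma voom against 1417, and 620 to 1572 with a library left out. For lymphatic against tumor free, 295 genes were higher and 108 lower when scaled by library size alone (372 and 67 with TMM). The cause was not tested.

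With a library left out, the difference in log2 ratio of Ccl4 to Ccl3 ran from 0.29 to 0.58 (lymphatic against tumor free). That of Xcl1 to Ccl5 ran from 0.65 to 1.18 (lymphatic against tumor free), −1.32 to −0.93 (hematogenous against tumor free) and −2.35 to −1.78 (between the models). That of Ccl3 plus Ccl4 to Ccl5 ran from 1.98 to 2.59 (lymphatic against tumor free) and −2.66 to −1.95 (between the models). For hematogenous against tumor free, values near 0 changed sign: Ccl4 to Ccl3, at −0.09, was 0.054 and 0.02 without hematogenous replicates 1 and 3 (range −0.23 to 0.05), and Ccl3 plus Ccl4 to Ccl5, at 0.03, was −0.27 and −0.04 without hematogenous replicate 1 and tumor-free replicate 3 (range −0.27 to 0.22).

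Same-numbered libraries did not deviate together (r over 0.1 in 2 of 12 pairs), which gave no sign of pairing. A small shared effect could be missed this way, so pairing is not excluded. With a replicate block the log2 fold changes against tumor free were 1.92 for Ccl3 and 2.45 for Ccl4 in the lymphatic and −1.52 for Xcl1 in the hematogenous group, no member call changed, and 362 genes were called for lymphatic against tumor free. In 3 of the 12 pairs the same number correlated best.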

Other observations

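Heatr9, the gene beside Ccl5 on chromosome 11, moved in the opposite direction to Ccl5 in the hematogenous group. It stood at 97.6 ± 23.1 CPM in the tumor-free, 89.9 ± 18.5 in the lymphatic and 188 ± 55.5 CPM in the hematogenous group (mean ± SD, n = 4). The hematogenous level was higher (log2 fold change 0.94, SE 0.197, edgeR adjusted p = 0.00323 against tumor free, and 1.062, SE 0.197, edgeR adjusted p = 0.00273 against lymphatic). In these comparisons 9.52% and 2.93% of all genes tested were higher. Heatr9 was looked at because of its position and was named after its values were seen.

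Together the 4 members took up 2074 to 2594 CPM of the tumor-free, 2247 to 3256 of the lymphatic and 1343 to 1834 CPM of the hematogenous libraries. Ccl5 was the most even member between replicates, with a coefficient of variation of 8.67%, 6.59% and 15.5% in these groups, and Ccl4 in the lymphatic group was the most uneven value of the 12, at 78.2%.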
